A study of Mus musculus with 15 samples.

Results

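Retinoic acid is a small signalling molecule made from vitamin A, and its 9 genes described here were read as columns of gene symbols in the transcript tables, 9 of 30534 features. Aldh1a1, Aldh1a2 and Aldh1a3 encode the aldehyde dehydrogenases that make retinoic acid. Cyp26a1, Cyp26b1 and Cyp26c1 encode the cytochrome P450 enzymes that break it down. Rarb encodes a nuclear receptor that binds it at DNA, and Crabp1 and Crabp2 encode small proteins that bind it in the cytoplasm. The genes were chosen by name.

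The data came from frozen mouse embryo sections on which microfluidic channels carried barcodes in a pair of crossed directions. Wherever a channel of the first direction met a channel of the other, a square pixel received a pair of barcodes and its transcripts were counted. The 11 transcript libraries comprised 3 at embryonic day 10 (E10) with 50 µm pixels, 1 at E10 with 25 µm pixels, 2 at E10 with 10 µm pixels, 2 at E11 with 25 µm pixels, 2 at E11 with 10 µm pixels and 1 at E12 with 50 µm pixels. All were labelled as embryo tissue, with no treatment or allele given. The labels name no strain, embryo or part of the embryo, and nothing says that libraries came from separate animals, so p-values measure only the spread between these libraries. A pixel is a small region that can hold several cells, or parts of them. Levels are counts per 1000000 counts of the library's tissue pixels (CPM), with 95% Poisson intervals that cover counting error only.

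In the vertebrate embryo, cells that make retinoic acid and cells that destroy it lie in different places, and the tissue between them is exposed to graded amounts of the molecule. Aldh1a2 is known as the main synthesis enzyme of the early trunk, while Aldh1a1 and Aldh1a3 are known from the dorsal and ventral parts of the developing eye. Rarb and Cyp26a1 are classical direct targets of retinoic acid, which the receptors reach through paired core motifs in DNA.

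Because Rarb and Cyp26a1 are known for such promoter sites, the RefSeq promoter windows of the members (GRCm38.p6, from 250 bases before to 50 bases after the start site) were searched on both strands. The search was for 2 copies in a row of a core motif (AGGTCA, in which the first base may also be G and the third base may also be T), separated by 5, 2 or 1 bases. Of the 9 members, 7 had a window. A repeat with a 5-base spacer was in the windows of these 2 genes and in 32 of 32544 windows of that length in all, or 0.0983%. Each is printed 5′ to 3′ with the core motifs in capitals.
Cyp26a1, minus strand of chr19:37697771-37697797: aaattAGTTCAcccaaAGTTCAtcttt
Rarb, minus strand of chr14:16575508-16575534: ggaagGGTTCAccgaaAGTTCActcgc
The Cyp26a1 match ends 16 bases before the start site and lies on the strand opposite to the gene. The Rarb match ends 37 bases before the start site and lies on the strand of the gene. The spacings of 2 bases and 1 base were in 0.270% and 0.224% of all windows and in none of the members' windows. A match describes letters in this window only.

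In the GENCODE M21 annotation (GRCm38), used for positions and lengths only, Cyp26c1 and Cyp26a1 are neighbours on chromosome 19 with 4399 bases between them. Aldh1a1 lies on the same chromosome at 20492715 to 20643465, ahead of its near-identical copy Aldh1a7 at 20692953 to 20727562. Reads shared by such copies could be counted under either symbol. Rarb, on chromosome 14 at 16430839 to 16819156, overlaps Top2b and Gm48162 on the opposite strand, and the use of strand in the authors' counting was not given in the sources used here. Aldh1a1 and Aldh1a2 also overlap opposite-strand transcripts or pseudogenes (C730002L08Rik and Gm6684, and Gm48124).

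The libraries held 1563489 to 11998765 counts in 829 to 2271 tissue pixels, with a median of 843.5 to 11332 counts per tissue pixel. Sections also differed in what tissue they showed. The summed level of 6 heart muscle markers ranged from 12.1 to 4586 CPM over the libraries, that of 6 liver markers from 8.25 to 3719 CPM, and that of 4 neural retina markers from 0.395 to 186 CPM. Levels in whole libraries are therefore given beside these lists.

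The binding proteins were the most abundant members. Crabp1 was at 918, 644 and 679 CPM in the E10 50 µm libraries, 303 CPM in the E10 25 µm library, 619 and 137 CPM in the E10 10 µm libraries, 413 and 340 CPM at E11 25 µm, 396 and 130 CPM at E11 10 µm, and 338 CPM at E12. The replicates of a group therefore differed by as much as the groups did. Crabp2 was at 138, 80.4 and 99.6 CPM at E10 50 µm, 66.5 CPM at E10 25 µm, 65.4 and 92.8 CPM at E10 10 µm, 85.1 and 76.6 CPM at E11 25 µm, 109 and 24.4 CPM at E11 10 µm, and 34.3 CPM at E12. Its lowest levels were in the second E11 10 µm library and at E12, the libraries with 3719 and 3496 CPM of liver markers. The part of tissue content in these levels was not tested.

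Rarb was the most even member, from 18.1 to 46.2 CPM. It was at 38.4, 46.2 and 19.9 CPM at E10 50 µm, 18.5 CPM at E10 25 µm, 38.7 and 18.1 CPM at E10 10 µm, 21.9 and 40.0 CPM at E11 25 µm, 30.7 and 35.7 CPM at E11 10 µm, and 32.8 CPM at E12. Every stage with more than 1 library thus held both low and high values.

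Among the synthesis enzymes a different gene led in different sections. Aldh1a2 held most counts of the 3 in 6 libraries, Aldh1a1 in 3 and Aldh1a3 in 2. Aldh1a2 was at 13.9, 26.8 and 8.74 CPM at E10 50 µm, 1.28 CPM at E10 25 µm, 1.83 and 0.566 CPM at E10 10 µm, 19.1 and 19.5 CPM at E11 25 µm, 1.17 and 40.8 CPM at E11 10 µm, and 24.6 CPM at E12. It was nearly absent from 4 libraries, with 2 to 22 counts each, and well counted in the other 7. In the 4 low libraries the retina markers summed to 110 to 186 CPM, and in the 7 others to 0.395 to 77.1 CPM.

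Aldh1a1 was highest in the first E10 10 µm library, at 55.5 CPM (51.4 to 59.9, 666 counts), and next in the E10 25 µm library at 30.7 CPM. It was at 2.82, 10.7 and 1.88 CPM at E10 50 µm, 13.8 CPM in the second E10 10 µm library, 0.987 and 1.56 CPM at E11 25 µm, 3.11 and 9.48 CPM at E11 10 µm, and 13.8 CPM at E12. Aldh1a3 stood out in the first E11 10 µm library with 388 counts in 221 pixels, 151 CPM (136 to 167). In the other libraries it ranged from 1.18 to 11.1 CPM, with both E11 25 µm libraries lowest at 1.18 and 1.302 CPM. The retina markers were also lowest in those 2 libraries, at 0.395 and 0.781 CPM.

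Of the breakdown enzymes, Cyp26b1 held the most counts in 10 of 11 libraries and tied with Cyp26a1, at 18 counts each, in the second E10 10 µm library. It was at 17.1, 20.02 and 40.9 CPM at E10 50 µm, 15.4 CPM at E10 25 µm, 6.001 and 3.40 CPM at E10 10 µm, 8.68 and 9.12 CPM at E11 25 µm, 12.4 and 7.29 CPM at E11 10 µm, and 34.5 CPM at E12. The 50 µm libraries, with their larger pixels and different fields, were the 4 highest. Cyp26a1 was at 2.64, 3.81 and 1.79 CPM at E10 50 µm, 8.95 CPM at E10 25 µm, 4.08 and 3.40 CPM at E10 10 µm, 0.592 and 0.912 CPM at E11 25 µm, 2.33 and 0.365 CPM at E11 10 µm, and 0.923 CPM at E12. Its counts at E11 and E12 were 1 to 7 per library. Cyp26c1 had 4, 10 and 5 counts at E10 50 µm, 1 at E10 25 µm and 3 in the first E10 10 µm library, and the tables of the other 6 libraries have no column of that name.

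**Figure D1:**
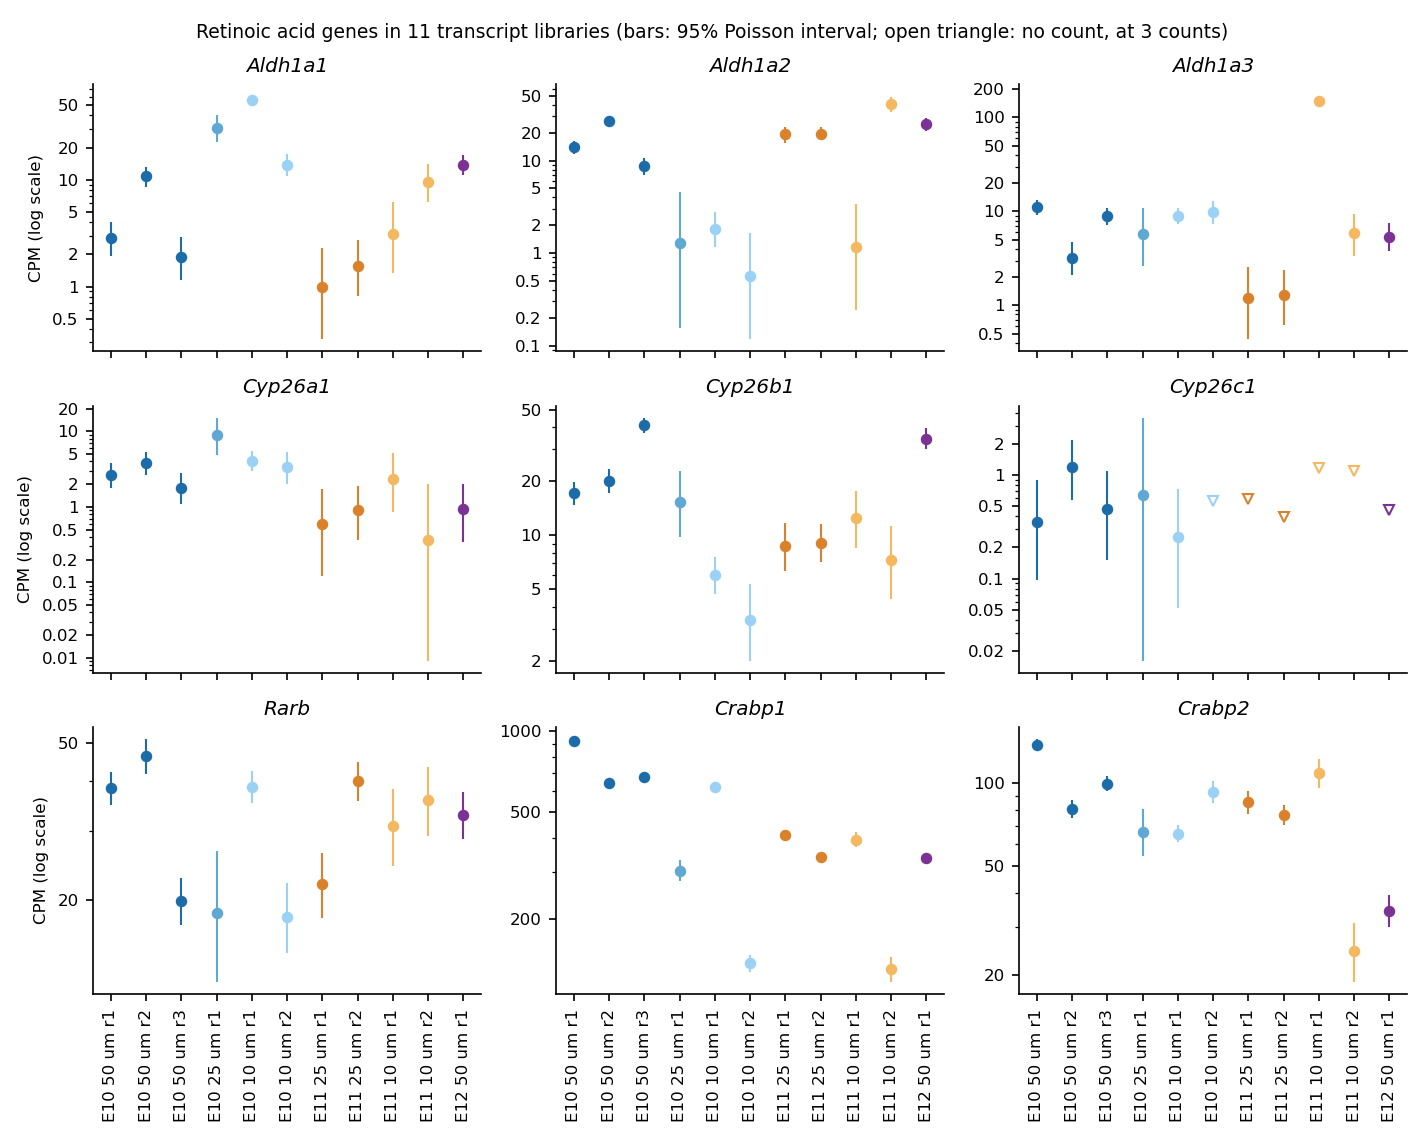
Level of each of the 9 genes in the 11 transcript libraries in CPM on a log scale, 1 point per library with its 95% Poisson interval, coloured by stage and pixel width; open triangles mark libraries with no count of the gene, drawn at the level of 3 counts. Crabp1 lies at 130 to 918 CPM, while Aldh1a2 spans 0.566 to 40.8 CPM and Aldh1a3 reaches 151 CPM in 1 library.

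Per kilobase of exon, the median level over libraries was 493 CPM per kb for Crabp1, 60.9 for Crabp2, 6.22 for Rarb, 6.15 for Aldh1a2, 2.33 for Cyp26b1, 1.92 for Aldh1a1, 1.26 for Aldh1a3 and 1.18 for Cyp26a1. Crabp1 was above Crabp2, and Crabp2 above Rarb, in 11 of 11 libraries. The next neighbours in that order changed places between libraries: Rarb was above Aldh1a2 in 5 of 11, Aldh1a2 above Cyp26b1 in 6, Cyp26b1 above Aldh1a1 in 7, Aldh1a1 above Aldh1a3 in 7, and Aldh1a3 above Cyp26a1 in 6.

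Stage was compared as the mean of the E11 against E10 differences at 10 and 25 µm, with edgeR's quasi-likelihood test over 18233 genes and Benjamini-Hochberg adjustment. Of 8 members tested (Cyp26c1 did not pass the filter on low counts), 1 was called at an adjusted p under 0.05, beside 3.6% of all genes tested. Cyp26a1 fell by 2.41 on the log2 scale (SE 0.60, adjusted p = 0.0469 by edgeR). The call was lost without any single E10 50 µm or E10 10 µm library, either E11 25 µm library or the second E11 10 µm library, with log2 changes of -2.57 to -2.02 and adjusted p of 0.0572 to 0.154. The change rests on 1 to 7 counts per E11 library. On the E10 side, the 25 µm group is 1 library, which had the highest Cyp26a1 level (8.95 CPM, 14 counts). The contrast cannot be fitted without it.

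For Aldh1a1 the difference was -3.39 (SE 0.79, adjusted p = 0.0546) and for Aldh1a2 it was 4.05 (SE 1.33, adjusted p = 0.135). Both missed the threshold in the edgeR fit and passed it under DESeq2, which called 7.83% of genes, at adjusted p of 4.26e-05 and 0.0110. Aldh1a1 also passed with no filter on low counts (adjusted p = 4.46e-06) and without the second or the third E10 50 µm library or the second E10 10 µm library (adjusted p = 0.0140 to 0.0489). Aldh1a2 passed without the first E11 10 µm library (4.53, SE 0.63, adjusted p = 0.00128), where it was nearly absent. The other 5 members had log2 differences of -0.01 to 0.58 with adjusted p of 0.394 and above. Over the 8 members the median was 0.16, and over all genes tested 0.05. Of 27 further pathway genes tested, 4 rose and none fell. Among them were Hoxb4 (4.33, SE 0.96, adjusted p = 0.0407), a Hox gene known as a retinoic acid target, and the receptor Rara (1.55, SE 0.33, adjusted p = 0.0255). The count of pathway genes that rose was 0 without the second E10 10 µm or the first E11 25 µm library and 1 without the second or the third E10 50 µm library. It was 2 without the first E10 50 µm or the second E11 10 µm library, and 9 under DESeq2 or without the first E11 10 µm library.

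The sections moved with stage as well. The retina list was at 110 to 186 CPM in the 3 E10 libraries with 10 or 25 µm pixels, and at 0.395, 0.781, 113 and 3.28 CPM in the E11 libraries, while liver markers were at 8.25 to 74.2 CPM in those E10 libraries and at 1169, 1518, 58.7 and 3719 CPM at E11. The part of tissue content in the stage differences was not tested. In bulk sums of a section, fewer cells of a type and less RNA per cell cannot be told apart.

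In the other 3 contrasts, no member was called: E12 against E10 at 50 µm (2.14% of genes called), 10 against 50 µm at E10 (0.11%) and 10 against 25 µm at E11 (2.07%). At an unadjusted p under 0.05 the edgeR test gave 1, 3 and 1 of 8 members in that order, beside 14.4%, 10.8% and 11.5% of all genes. DESeq2 with adjustment called 0, 2 and 1 of 8, beside 2.85%, 2.27% and 3.08%. The nearest to the threshold was Cyp26b1, with -2.41 at E10 10 against 50 µm (SE 0.45, adjusted p = 0.0720), where all 3 libraries with 50 µm pixels were above both with 10 µm pixels. Hoxb1, a hindbrain Hox gene, was the 1 pathway gene called in each: it fell by 2.98 (SE 0.71, adjusted p = 0.0498), 4.53 (SE 0.60, adjusted p = 0.0339) and 4.42 (SE 0.63, adjusted p = 0.00338). In the first of these contrasts no pathway gene was called as lower without any 1 of the E10 50 µm or E11 25 µm libraries, nor with DESeq2's size factors in edgeR. In the second none was without the first or the third E10 50 µm library, the second E10 10 µm library or either E11 25 µm library. The E12 group is 1 library, assumed to vary as the other groups do.

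Within the sections, clustering in space was summarised by Moran's I, which is near 0 for scattered counts and rises as neighbouring pixels hold like values, in libraries with the gene in at least 5% of tissue pixels. Its median was 0.35 for Aldh1a3 (3 libraries), 0.34 for Aldh1a1 (2 libraries), 0.30 for Crabp1 (11), 0.23 for Aldh1a2 (5), 0.20 for Cyp26b1 (4), 0.11 for Rarb (6) and 0.07 for Crabp2 (10). These are descriptions, and a gene with few counts gives a lower index.

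In the E10 50 µm sections Aldh1a2 was concentrated at low first coordinates. With tissue pixels split at the median of the first grid coordinate, a split added after the maps were seen, the low side held 81.7%, 87.1% and 78.5% of its counts in the 3 libraries. As levels, Aldh1a2 was at 20.1, 51.7 and 18.1 CPM on the low side and at 5.88, 6.30 and 3.03 CPM on the high side. Rarb followed the same side, with 86.0%, 61.3% and 68.9% of its counts, and so did the trunk gene Hoxb5 with 83.4%, 85.9% and 82.3%. Otx2, a gene of the forebrain and midbrain chosen after its map was seen, had 25.1%, 31.6% and 14.9% of its counts there.

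Cyp26b1 was spread over both sides of the same sections, with 40.2%, 39.9% and 46.7% of its counts on the low side. Since the sides differ in depth, its levels were 12.2, 17.7 and 50.3 CPM on the low side and 23.5, 21.96 and 35.1 CPM on the high side. The exact 95% Poisson intervals of the 2 sides overlapped in the second library, with the first higher on the high side and the third on the low side. The mean position of its counts lay 11.8, 12.8 and 12.7 pixels from that of Aldh1a2. The mean position of all counts lay 9.26, 13.5 and 13.05 pixels from that of Aldh1a2, and that of Crabp1 10.6, 10.4 and 12.05 pixels. A distance of this size was therefore not particular to Cyp26b1. In 5 other libraries with at least 20 counts of each gene the distance of Cyp26b1 from Aldh1a2 was 4.12 to 11.0 pixels. Their pixels were 10, 25 or 50 µm wide, so these distances do not share a physical scale. Crabp1 was at 891, 874 and 902 CPM on the low side and at 954, 454 and 543 CPM on the high side, higher on the low side in the second and the third library and not in the first.

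**Figure D2:**
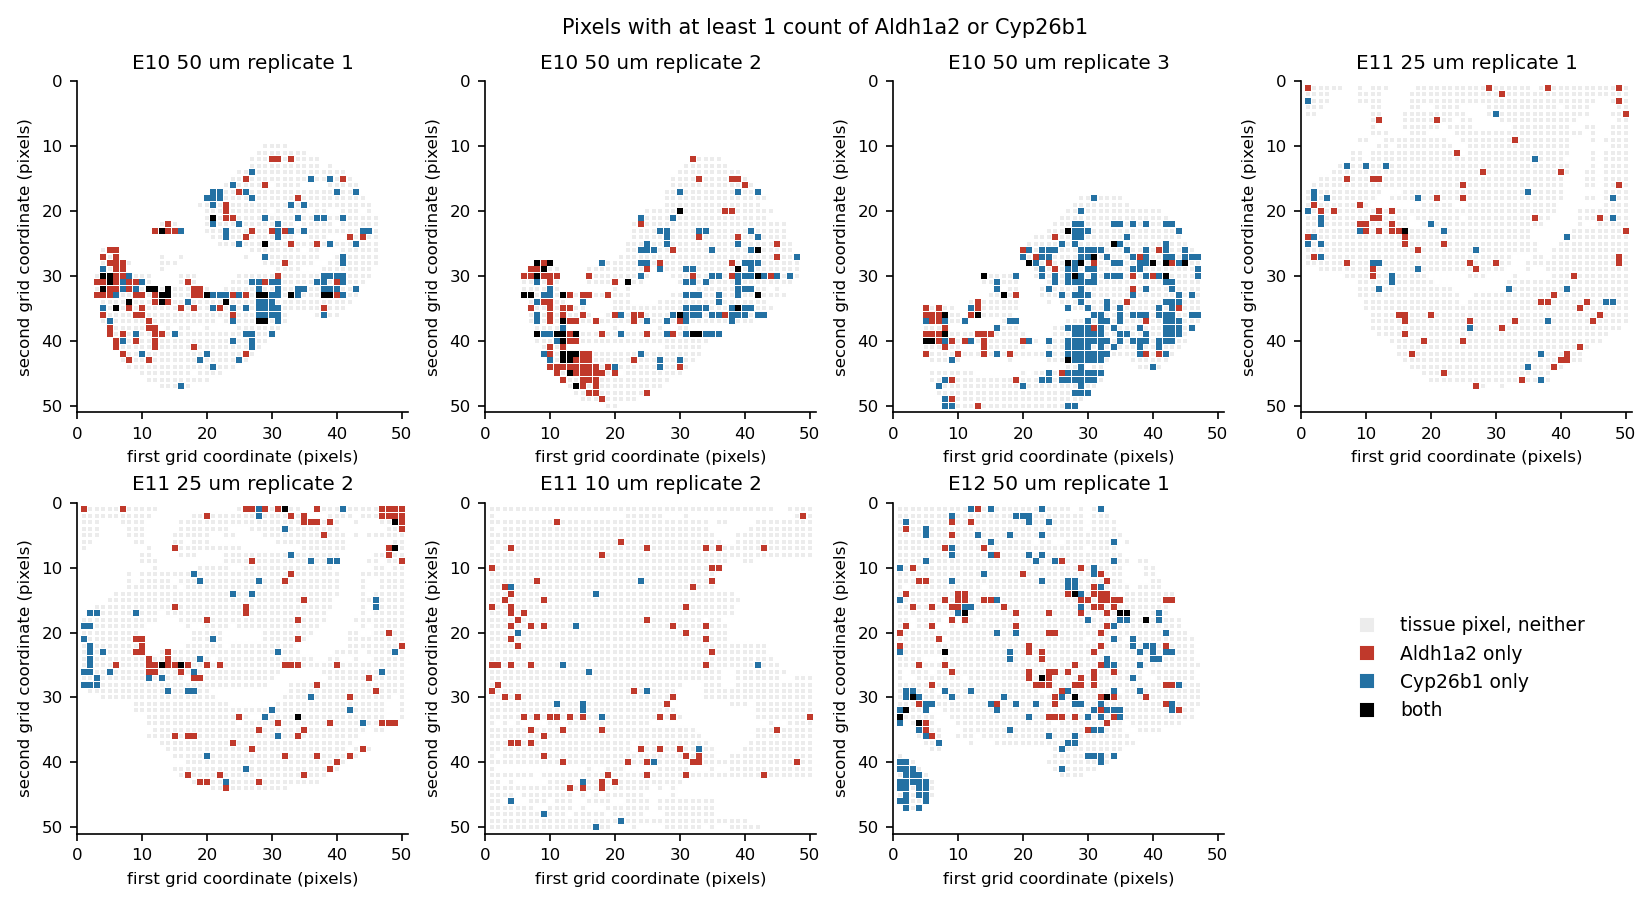
Maps of tissue pixels with a count of Aldh1a2 only, of Cyp26b1 only or of both, over the grid of crossed channels (axes in pixels). Other tissue pixels are in grey. In the E10 50 µm sections Aldh1a2 lies mainly at low first coordinates (78.5% to 87.1% of its counts), while Cyp26b1 is found on both sides (39.9% to 46.7%).

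Single pixels with both an Aldh1a2 and a Cyp26b1 count were a minority. They numbered 24, 30 and 19 in the E10 50 µm libraries, which was 20.9%, 24.0% and 26.8% of the pixels with Aldh1a2 and 18.2%, 22.9% and 7.82% of those with Cyp26b1. At E11 25 µm there were 1 and 6 (1.25% and 5.83% of the Aldh1a2 pixels), at E11 10 µm none in the second library, and at E12 there were 13 (10.3%). For reference, Cyp26b1 was found in 15.4%, 15.8% and 29.0% of all tissue pixels in the E10 50 µm libraries, in 2.41% and 3.92% at E11 25 µm, in 1.04% in the second E11 10 µm library and in 10.6% at E12. The share of Aldh1a2 pixels with Cyp26b1 was above the share in the tissue as a whole in 3 of these 7 libraries and below it in the other 4.

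Over blocks of 5 by 5 pixels, the Spearman correlation of Aldh1a2 and Cyp26b1 levels across blocks was -0.09 to 0.17 in 8 libraries, positive in 6 of them. Aldh1a2 and Rarb correlated at -0.01 to 0.52, positive in 7 of 8 libraries. These values describe 37 to 98 blocks per library that share a section and its depth.

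The genes that accompany each enzyme were sought by summing counts, in each library, over tissue pixels with the enzyme's gene and over those without it, and testing the ratio with the library as a block. Libraries with at least 20 pixels of each kind entered. Pixels with a gene were mostly deeper: the ratio of their median count to that of the other pixels was 1.07 to 1.84 for Aldh1a1, 0.963 to 1.3 for Aldh1a2, 1.23 to 1.82 for Aldh1a3, 1.03 to 1.59 for Cyp26a1 and 1.01 to 1.98 for Cyp26b1. The part of depth in the ratios below was not tested. Cyp26c1 reached 20 pixels in no library.

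Pixels with Aldh1a2, in 7 libraries, carried more of the motor neuron markers (1.10 to 1.69 times, higher in 7 of 7 libraries), the hindbrain markers (1.10 to 2.28 times, 7 of 7) and the mesothelium markers (0.968 to 2.48 times, 6 of 7). None of the 5 other members tested was called, where 0.617% of genes were, and none had an unadjusted p under 0.05. The log2 ratio of Cyp26b1 was -0.10 (SE 0.19) and that of Rarb was 0.24 (SE 0.14, adjusted p = 0.716 by edgeR). The 5 genes with the largest ratios among 16 that were called, reached 5 CPM and were higher in 7 of 7 libraries were Tbx5, Upk3b, Hoxb5, Hoxb7 and Isl1. Tbx5 is a transcription factor of the heart and forelimb, Upk3b a mesothelial marker and Isl1 a factor of motor neurons and heart progenitors. Upk3b belongs to the mesothelium list and Isl1 to the motor neuron list, so these genes and the list ratios above share counts.

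Their log2 ratios were 1.13 (SE 0.26) for Tbx5, 0.97 (SE 0.24) for Upk3b, 0.92 (SE 0.16) for Hoxb5, 0.74 (SE 0.18) for Hoxb7 and 0.69 (SE 0.13) for Isl1. In median level, Hoxb5 was at 34.5 CPM in pixels with Aldh1a2 and 15.9 CPM in those without. Of 23 pathway genes tested, 4 were higher and 1 was lower. Those higher included, beside Hoxb5, the retinol dehydrogenase Rdh10 (0.89, SE 0.18, adjusted p = 0.00322), which makes the substrate of the Aldh1a enzymes, and the retinol uptake receptor Stra6 (0.77, SE 0.20, adjusted p = 0.0426). Rbp4, the retinol carrier of serum made by the liver, was lower (-1.21, SE 0.15, adjusted p = 2.03e-07), and the summed liver markers were lower in 7 of 7 libraries too, at 0.293 to 0.911 times the level elsewhere.

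Pixels with Aldh1a1, in 6 libraries, carried more of the pigment epithelium markers in 5 of them (0.815 to 7.17 times). The retina list was higher in 4 of the 6 (0 to 4.42 times). Of 6 members tested 1 was called, beside 0.355% of genes: Aldh1a3, with a log2 ratio of 1.22 (SE 0.32, adjusted p = 0.0397 by edgeR). It was higher in 3 of the 6 libraries, at 2.77, 13.6 and 68.2 CPM (lowest, median and highest) in pixels with Aldh1a1 and 3.26, 6.25 and 11.1 CPM in the others. Without the E10 25 µm library the log2 ratio was 1.18 (adjusted p = 0.106), and without the second E10 10 µm library it was 0.75 (adjusted p = 0.999). Without the first E10 10 µm library Aldh1a3 did not pass the filter on low counts, and DESeq2 did not call it. The 4 genes that met the naming rule were Aldh1a7 (2.98, SE 0.29), Dapl1 (2.71, SE 0.23), Clu (0.95, SE 0.24) and Nrip1 (0.50, SE 0.12, a nuclear receptor cofactor). Dapl1 had a median of 50.6 CPM in pixels with Aldh1a1 and 8.26 CPM elsewhere. Aldh1a7 is the near-identical copy, so its ratio may hold reads of Aldh1a1 itself.

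Pixels with Aldh1a3, in 7 libraries, carried more of the retina markers. The pigment epithelium list was higher in 6 of the 7 (0.611 to 10.2 times). No member of the 5 tested was called, beside 0.353% of genes, and none had an unadjusted p under 0.05. Aldh1a1 was not among the 5, as it did not pass the filter on low counts. In 5 alternative fits that held it, its log2 ratio was 0.99 to 1.32. It was called in 1 of them, the edgeR fit with no filter on low counts (adjusted p = 0.0127). The genes named by the rule were Krt18 (log2 ratio 1.62, SE 0.23), Stx3 (1.07, SE 0.25), Six3 (0.96, SE 0.12), Stra6 (0.88, SE 0.20) and Cdca7l (0.73, SE 0.16), 5 of 8 that met it. Six3 is a homeobox gene of the forebrain and retina and 1 of the 4 retina markers, whose summed level was higher in 7 of 7 libraries (1.67 to 2.77 times). Six3 itself had medians of 109.7 CPM with Aldh1a3 and 57.4 CPM without. Nrip1 was the other pathway gene called (0.56, SE 0.09, adjusted p = 0.000337).

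Pixels with Cyp26a1 could be tested in 3 E10 libraries. None of 7 members was called, where 0.0287% of genes were. At an unadjusted p under 0.05 there were 4 members, all with ratios above 1, beside 4.98% of genes: Aldh1a1 (log2 ratio 1.02, SE 0.32), Aldh1a3 (0.94, SE 0.47), Cyp26b1 (0.84, SE 0.35) and Rarb. Rarb had a log2 ratio of 0.71 (SE 0.22, unadjusted p = 0.00183, adjusted p = 0.637 by edgeR) and was higher in 3 of 3 libraries. Over 4 alternative runs its log2 ratio was -0.09 to 0.73. The 4 members at an unadjusted p under 0.05 became 2 with DESeq2. They became 1 with the 8 neighbours of Cyp26a1 pixels in place of the pixels themselves. DESeq2 called no member and no gene in this comparison.

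Pixels with Cyp26b1, in 10 libraries, carried more Crabp1. The level of Crabp1 was 178, 615 and 1246 CPM (lowest, median and highest library) in pixels with Cyp26b1 and 130, 401 and 842 CPM in pixels without. The ratio was above 1 in 10 of 10 libraries, although the ranges overlap across libraries. On the log2 scale it was 0.41 (SE 0.07, adjusted p = 1.98e-05 by edgeR), and Crabp1 was the 1 member of 5 called, beside 0.549% of genes. It was also the only gene that met the naming rule and the only gene that DESeq2 called. The call held with each library left out in turn and with the 8 neighbours of Cyp26b1 pixels in place of the pixels themselves.

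**Figure D3:**
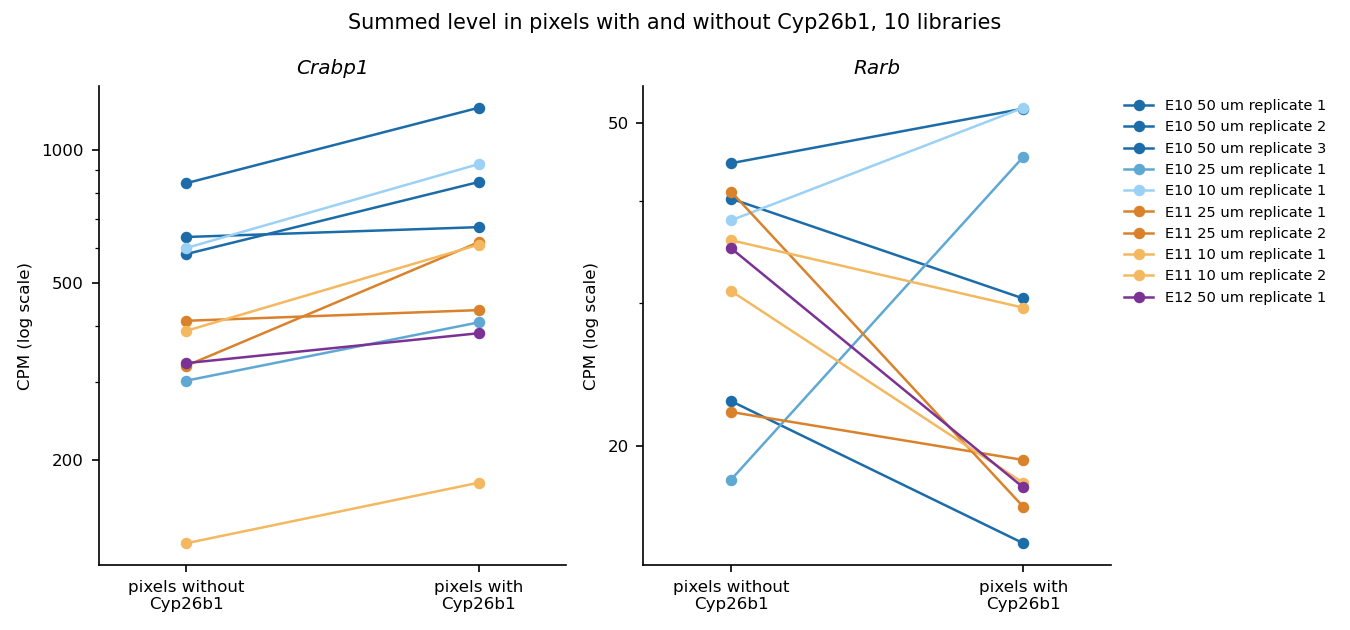
Crabp1 and Rarb levels in CPM (log scale), 1 panel per gene, in tissue pixels without and with a Cyp26b1 count. Each line is 1 of the 10 libraries tested, coloured by stage and pixel width. Every Crabp1 line rises from left to right, with medians of 401 and 615 CPM. Rarb was not called.

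Crabp2 in the same comparison had a log2 ratio of 0.19 (SE 0.09, adjusted p = 0.894) and Rarb -0.27 (SE 0.13, adjusted p = 0.852). Among 22 pathway genes only Hoxb1 was called (0.69, SE 0.19, adjusted p = 0.0428). No pathway gene was called as higher with DESeq2, with no filter, with all pixels, with the 8 neighbours, or without the first or the second E10 50 µm library or the E10 25 µm library. Heart muscle markers were lower in pixels with Cyp26b1 in 10 of 10 libraries, at 0.245 to 0.961 times. The craniofacial mesenchyme list was higher in 7 of 10 (0.955 to 3.52 times) and the hindbrain list in 7 of 10 (0 to 2.29 times). So was the somite and sclerotome list, in 7 of 10 (0.496 to 2.48 times). The part of these tissues in the Crabp1 ratio was not tested. Across 5 by 5 pixel blocks, Cyp26b1 and Crabp1 levels correlated at 0.13 to 0.44 (Spearman), positive in 10 of 10 libraries.

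A direct comparison of pixels with Aldh1a2 and no Cyp26b1 against pixels with Cyp26b1 and no Aldh1a2 was added after the data were seen. In 7 libraries 0.39% of genes were called by edgeR and none of the 3 members tested. Rarb was higher on the Aldh1a2 side in 7 of 7 libraries, at medians of 40.4 against 19.4 CPM (log2 ratio 0.68, SE 0.19, adjusted p = 0.119). Crabp1 was lower there in 6 of 7, at medians of 449 against 644 CPM (-0.47, SE 0.11, adjusted p = 0.119). Both had an unadjusted p under 0.05, as did 5.2% of all genes. DESeq2 called no member, and the edgeR fit with no filter on low counts called 1, Crabp1.

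Among the 14 genes that met the same naming rule on the Aldh1a2 side, the 4 with the largest ratios were Hoxb5 (1.46, SE 0.22), Hoxa5 (1.27, SE 0.17), Crispld2 (1.08, SE 0.22) and Rbpms (0.95, SE 0.19). Hoxb5 was at a median of 35.0 CPM on the Aldh1a2 side and 9.43 CPM on the Cyp26b1 side. Hist1h2ap, a histone gene, was the 1 gene that met the naming rule on the Cyp26b1 side (called, at 5 CPM or more and higher there in every library) (-0.24, SE 0.06, adjusted p = 0.0393).

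Marker regions show the tissue around each gene. A pixel was placed in a region when its 3 by 3 window held at least 2 different markers of a list at 4 times or more the mean level of the list in the tissue, so regions are ranges and not cell types. Over 12 lists, 6 of 84 pairs of a member and a region with enough counts lay on 1 side in every library, or 7.14%, near the 5.73% of such pairs over all genes. The retina regions described held 24 to 106 pixels per library, and 19 to 83 pixels lay within 1.2 times of their threshold on either side. The mesothelium regions held 22 to 126, with 10 to 75 that close to the threshold.

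Aldh1a3 was higher in the neural retina region than in the rest of the section in 5 of 5 libraries, at 2.11 to 10.5 times, where 2.31% of genes were higher in every library. Its level there was 56.2 and 23.5 CPM in the first and second E10 50 µm libraries, 28.9 and 54.2 CPM at E10 10 µm and 299 CPM in the first E11 10 µm library. At E10 it was 2.25 to 9.49 CPM in the rest of those sections, below every level in the region, and at E11 it was 142 CPM. Some of these markers are also used in the hypothalamus.

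Aldh1a2 was higher in the region of the mesothelium, the lining of the body cavities, in 7 of 8 libraries, at a median of 4.28 times and at most 7.09 times. Its level in the region was 90.1, 42.3 and 36.4 CPM at E10 50 µm, 65.8 and 79.8 CPM at E11 25 µm, 120 CPM in the second E11 10 µm library and 111 CPM at E12. In the rest of those sections it was 7.86 to 38.9 CPM. The exception was the first E10 10 µm library with 0 counts in 25 pixels, where 3 counts would be 31.5 CPM.

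Crabp1 was higher in the hindbrain region in 7 of 7 libraries (1.05 to 3.29 times, where 0.641% of genes were) and in the craniofacial mesenchyme region in 8 of 8 (1.10 to 3.75 times, where 0.549% were). At E11 25 µm it was at 1031 and 1074 CPM in the hindbrain region and at 1248 and 1073 CPM in the craniofacial one, against 286 to 402 CPM outside them. Cyp26b1 shared these regions in part. In the third E10 50 µm library it was at 190 CPM (146 to 244, 63 counts) in the hindbrain region against 36.1 CPM elsewhere, but it was at 0 counts in the hindbrain region of 4 of 7 libraries. In the craniofacial region it was higher in 4 of 8 libraries, up to 7.65 times, at 28.6 and 48.1 CPM at E11 25 µm and 110 CPM at E12.

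Lower levels in every library were found for Crabp2 in the heart muscle region (0 to 0.811 times in 11 libraries, where 3.54% of genes were lower) and in the red blood cell region (0 to 0.884 times in 8, where 9.28% were). The same held for Rarb in the neuron region (0 to 0.745 times in 8, where 5.77% were). These shares were a few percent of all genes or more. Cyp26a1 had too few counts for a pattern over regions, with 14 counts in all pigment epithelium regions and 11 in all retina regions.

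**Figure D4:**
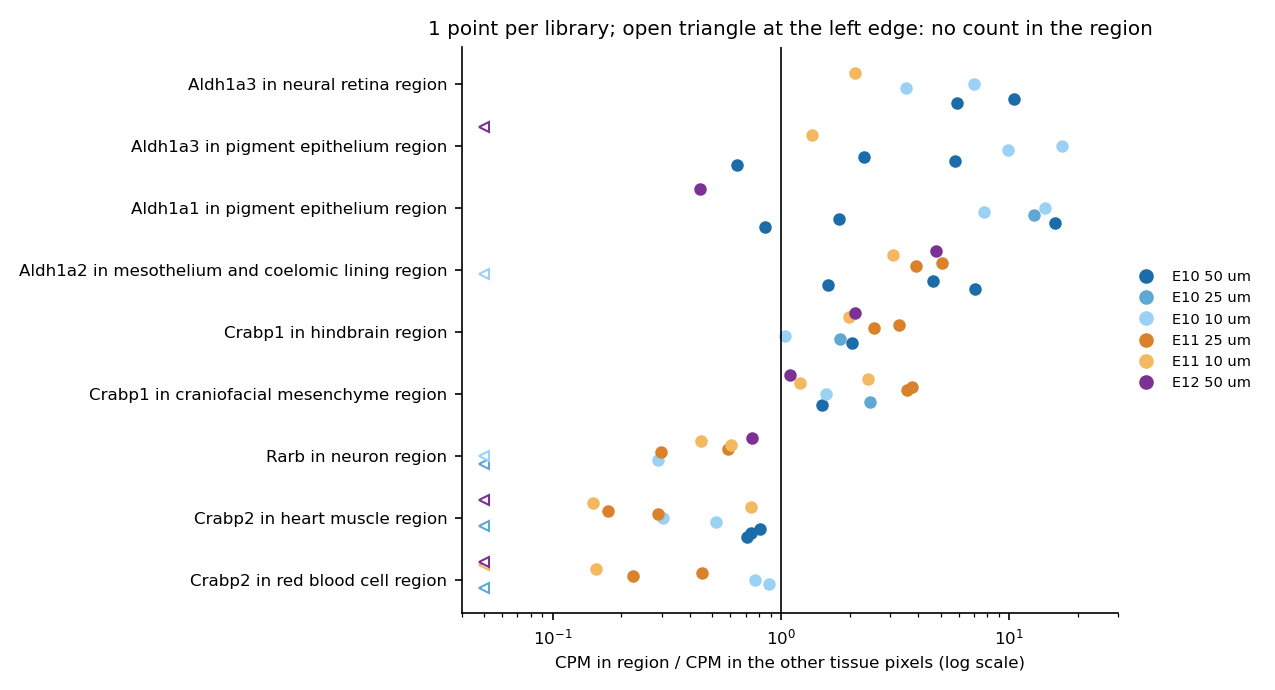
Ratio of each gene's level inside a marker region to its level in the rest of the section (log scale), 1 point per library with at least 10 counts of the gene. Aldh1a3 in the neural retina region, and Crabp1 in the hindbrain and craniofacial regions, lie above 1 in every library shown, and Aldh1a2 in the mesothelium region lies above 1 in 7 of 8.

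The eye was in view in both E10 10 µm sections. By the first rule used, the largest connected piece of retina and pigment epithelium region, the first library gave a piece of 72 pixels cut by blank barcode lines, in which Aldh1a1 was at 0.473 times its level elsewhere. Retina and pigment pieces were therefore joined across gaps of up to 3 pixels and all tissue pixels inside their outline were taken as the eye, a change made after the maps were seen. The joined eye had 208 pixels in the first library and 162 in the second. The 2 outlines held 11.0% and 8.55% of the tissue counts of their libraries.

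Aldh1a1 was concentrated in the joined eye of both sections. In the first it was at 341 CPM (310 to 374, 451 of 666 counts) against 20.1 CPM in the rest, 16.9 times. In the second it was at 94.9 CPM (68.7 to 128, 43 of 73 counts) against 6.19 CPM, 15.3 times. Aldh1a3 was at 46.8 CPM (35.9 to 60.0) against 4.22 CPM in the first, 11.1 times, and at 70.6 CPM (48.3 to 99.7) against 4.13 CPM in the second, 17.1 times. Aldh1a2 had 1 count in the first eye and 0 in the second. Aldh1a1 and Aldh1a3 thus made up nearly all synthesis counts of both eyes.

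Within the eye the 2 enzymes were placed differently. In the first section the eye could be divided by the mean positions of Tbx5 (17 counts), a gene of the dorsal retina, and of Vax1 and Vax2 (32 counts), genes of the ventral retina and optic stalk, which lay 6.44 pixels apart. Aldh1a1 had 411 counts on the Tbx5 side and 40 on the Vax side, at 511 CPM (462 to 562) and 77.1 CPM (55.1 to 105), and the intervals are far apart. Aldh1a3 had 33 and 29 counts, at 41.0 CPM (28.2 to 57.6) and 55.9 CPM (37.4 to 80.3), and those intervals overlap. Vax2 was at 6.21 and 42.4 CPM, as its use in the axis sets. The second eye had 1 Tbx5 count. By the first rule this gave an axis of 5.16 pixels with 34 Aldh1a1 counts on the Tbx5 side and 9 on the Vax side, but a minimum of 10 counts for an axis, added after the maps were seen, leaves it out. The division of the first eye therefore has no replicate that meets the minimum.

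**Figure D5:**
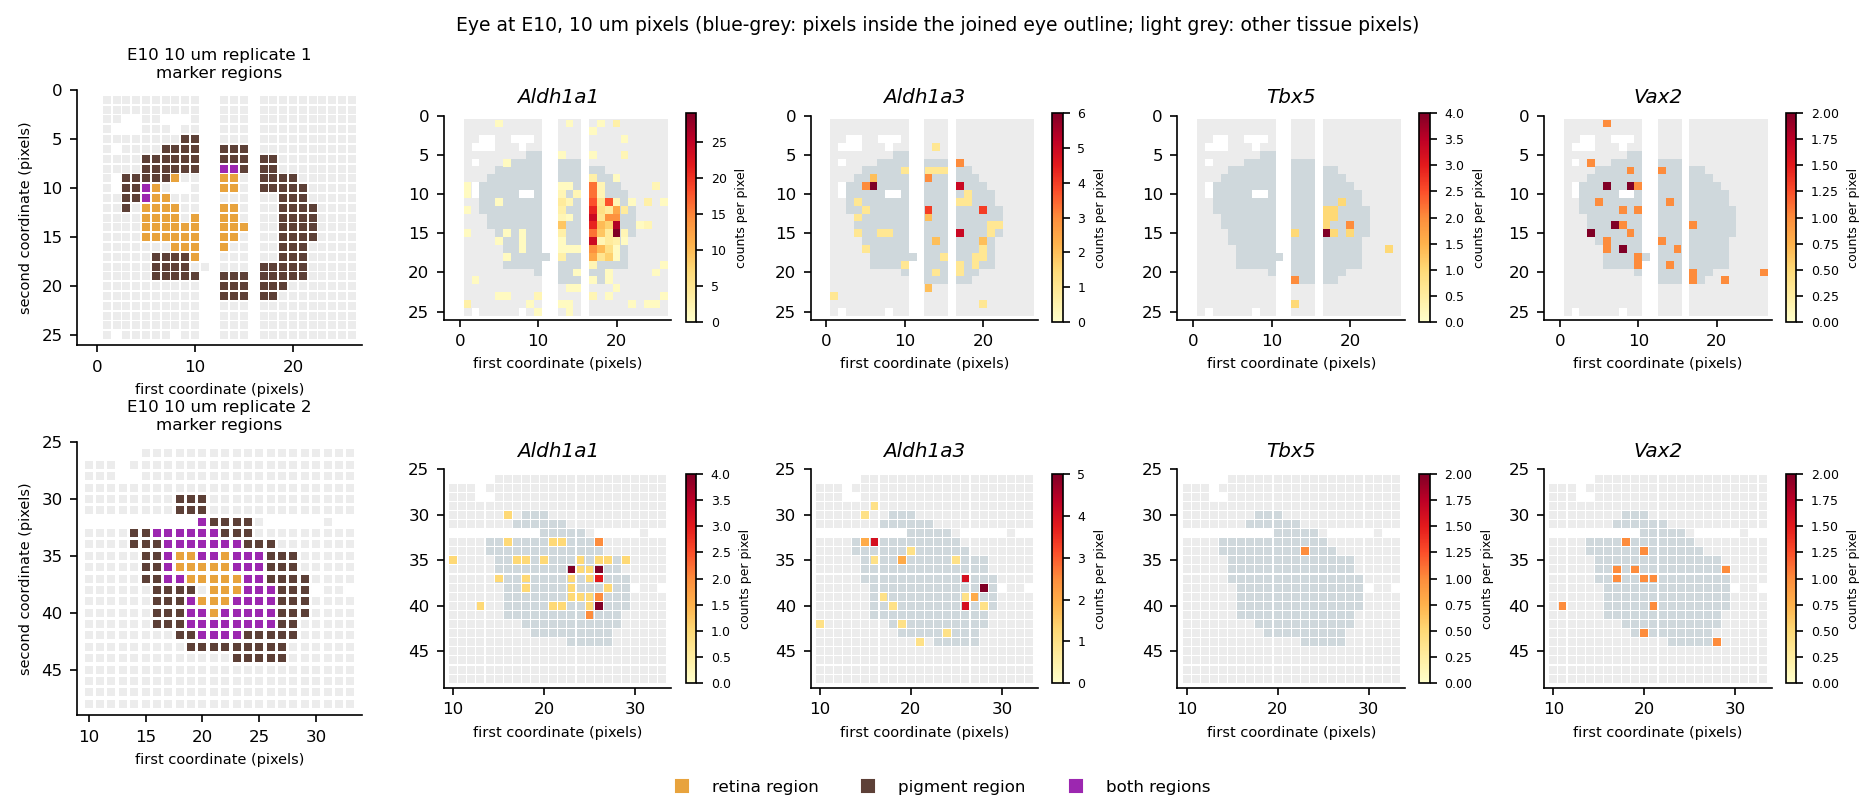
The eye in both E10 10 µm sections: marker regions, then counts per pixel of Aldh1a1, Aldh1a3, Tbx5 and Vax2 (axes in pixels; pixels inside the joined eye outline in blue-grey; empty columns in the first section are blank barcode lines). In the first section Aldh1a1 fills the side with Tbx5, with 411 of 451 counts on it, while Vax2 lies mainly on the other and Aldh1a3 on both.

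The breakdown genes were sparse in the eye. Cyp26a1 had 8 counts in the first eye, at 6.04 CPM (2.61 to 11.9) against 3.84 CPM in the rest, and Cyp26b1 had 4, at 3.02 CPM (0.823 to 7.74) against 6.37 CPM. In the second eye each had 5 counts, at 11.0 CPM (3.58 to 25.8) against 2.68 CPM. Whether either gene formed a band within the eye was not tested, with 4 to 8 counts of each per eye.

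The receptor and the binding proteins differed less between eye and surroundings. Rarb was at 41.6 against 38.3 CPM in the first section and 24.3 against 17.5 CPM in the second, each within its Poisson interval. Crabp1 was at 700 CPM (656 to 747) against 609 CPM, and at 271 CPM (226 to 324) against 125 CPM. Inside the first eye Crabp1 was higher on the Tbx5 side, at 832 CPM (771 to 898) against 495 CPM (437 to 560). Crabp2 was at 82.4 CPM (67.6 to 99.3) against 63.3 CPM and at 92.7 CPM (66.8 to 125) against 92.9 CPM.

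At E11 the first 10 µm section also held an eye, of 203 joined pixels. Aldh1a3 was at 279 CPM (218 to 352) inside it, from 71 of 388 counts, and at 137 CPM outside, so that most of its counts in this section lay outside the outline. Aldh1a1 had 8 counts in the section, 6 of them in the eye. Cyp26b1 was at 31.4 CPM (13.6 to 61.9) inside and 10.4 CPM outside.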

How the data were processed

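Per the labels' protocols, frozen sections were barcoded, and Nextera XT libraries were sequenced as paired reads. The authors deposited unnormalised counts per gene symbol and pixel. Per the submitters' processing notes CASAVA 1.8.2 was used, and they name a human build, GRCh38. The aligner, annotation, strand use and duplicate collapsing were not given in the sources used here.

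A pixel counted as tissue when its total reached 0.1 times the library's 95th percentile. Library or pixel-class sums were tested with edgeR 4.0.16 (quasi-likelihood, TMM, filterByExpr; R 4.3.3), DESeq2 1.42.0 being an alternative, and the scripts were tested on simulated data. The group fit had 5 residual degrees of freedom. Of fitted genes, the text names all members, the called pathway genes, and for each enzyme the 5 largest ratios among genes called, at 5 CPM or more and higher in every library. Members and lists, including the regions' markers, were chosen with earlier results of these data known. A few genes that met the naming rule are not reported here. The 4 antibody libraries were not used. The labels do not say that E11 replicate numbers pair sections, so none were paired in the main fit. The correlation of deviations between same-numbered libraries was 0.0544, which cannot show whether they pair, since the sections differed in tissue.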

Additional observations from a re-analysis of the deposited data

How the results depend on the processing

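The Crabp1 ratio in pixels with Cyp26b1 kept its direction and call under every alternative run. Calls of members moved elsewhere. E11 against E10 had 1 member called, 3 with DESeq2, 2 with no filter on low counts and 0 to 2 with a library left out, and 656 genes, 1428, 1988 and 144 to 1465 in the same order. E12 against E10 went from 0 members and 390 genes to 1 and 1328 with no filter, and to 0 to 1 and 98 to 969 with a library left out. For 10 against 50 µm at E10, DESeq2 gave 2 members and 413 genes, no filter 2 and 731, and leaving out a library 0 to 2 and 0 to 164, in place of 0 and 20. For 10 against 25 µm at E11, DESeq2 gave 1 member, no filter 870 genes, leaving out a library 0 to 1 members and 33 to 463 genes, and a replicate block 0 members and 297 genes, in place of 0 and 378. Leaving out the E10 25 µm or E12 library removes the contrasts that use it.

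For pixels with a gene against those without, genes called under no filter, DESeq2 and the 8 neighbouring pixels were 100, 5 and 3 for Aldh1a1 (42 as reported), 167, 28 and 5 for Aldh1a2 (75), 182, 19 and 19 for Aldh1a3 (40), 9, 0 and 0 for Cyp26a1 (4) and 248, 1 and 42 for Cyp26b1 (66). The 1 member called with Aldh1a1 became 0 under all 3, and 1 member, Aldh1a1, was called with Aldh1a3 under no filter. With a library left out, Aldh1a1 gave 0 to 1 members and 16 to 49 genes, Aldh1a2 0 and 48 to 82, Aldh1a3 0 and 21 to 58, and Cyp26b1 1 and 52 to 69. Aldh1a2 pixels against Cyp26b1 pixels gave 32 genes and 0 members, 12 genes with DESeq2, 56 genes and 1 member with no filter, and 14 to 51 genes and 0 to 1 members with a library left out. The causes were not tested.

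In the first E10 10 µm library, the Aldh1a1 ratio in the eye was 0.473 for the cut piece, 7.20 with all pixels, 16.9 with joined pieces and 16.8 with both, and the axis had 10 counts on each side, a minimum set after seeing the data, in 0 libraries by the first rule and in 1 after joining, with tissue pixels or all pixels. At 8 times the list level the largest pieces had 37 and 43 pixels, under the minimum of 50, so no value was given. Depth limits Cyp26a1 and Cyp26c1 most, with 185 and 23 counts in all libraries.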

Other observations

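The E12 section held a separate piece of tissue of 39 pixels, described after its map was seen, in which the breakdown gene Cyp26b1 was high and Aldh1a2 was not counted. Cyp26b1 had 46 of its 224 counts there, 184 CPM (135 to 246), against 28.5 CPM in the main piece, 6.47 times. Aldh1a2 had 0 counts, where 3 counts would be 12.0 CPM, against 25.6 CPM in the main piece. Rarb had 1 count, 4.01 CPM (0.101 to 22.3), against 33.9 CPM, and Crabp2 was at 92.2 CPM (58.4 to 138) against 32.0 CPM. The craniofacial mesenchyme list was at 1827 against 329 CPM there, 5.55 times. Hox genes of the posterior and distal limb had 0 counts, and liver markers were at 112 against 3631 CPM. The piece comes from 1 library, and the intervals cover counting error only.

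In the first E11 10 µm section, Aldh1a3 was the most counted of the 3 synthesis genes, with 388 counts beside 8 of Aldh1a1 and 3 of Aldh1a2. Of its counts 317 lay outside the eye outline, and no marker list used here was fixed for that tissue.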
